A study of Mus musculus with 6 samples.

Results

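The Hox cluster genes were followed in 6 RNA sequencing libraries of mouse RM1 prostate cancer cells. Every entry of the count table whose symbol is Hox, a cluster letter from a to d and a position number was taken, which gave 32 genes out of 23791 entries. Of these, 11 belong to Hoxa, 4 to Hoxb, 9 to Hoxc and 8 to Hoxd. The mouse annotation (GENCODE M21, genome build GRCm38) lists 39 such genes, and the other 7 (6 of Hoxb, and Hoxd12) were not analysed here.

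RM1 is a mouse prostate cancer line of the C57BL/6 strain, transformed with ras and myc. RM1536 is RM1 that carries eCFP, a fluorescent protein, and luc2, a luciferase. It was made by pooling clones 5, 3 and 6, so it descends from a few selected cells. The groups were bone (1 library, RM1536 cells from the femur), lung (1 library, RM1536 cells from the lung), RM1536 in culture (replicates a and b) and RM1 in culture (replicates a and b). The cells of both organs were recovered from 1 mouse on day 16 after an injection of PKH26-dyed RM1536 into the heart, and those that had lost the dye through division were taken. Cells of all groups were sorted and grown in DMEM with 5% FBS to 85% confluency before RNA was extracted, so the bone and lung libraries describe recovered cells after a further period in culture. Whether a and b were grown as separate cultures is not stated, so p-values measure only the spread between these libraries, which may be technical.

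Hox genes code for homeodomain transcription factors that give cells their position along the body axis. They sit in 4 clusters, and in the embryo genes at the 3′ end of a cluster (low position numbers) are switched on earlier and further forward than genes at the 5′ end (high numbers), as Polycomb silencing is lifted and trithorax proteins, retinoic acid and Cdx factors act on the cluster. Adult cells usually keep the Hox pattern of the region they came from, and in the prostate, an organ of the posterior body, the genes with the highest position numbers, such as Hoxb13 and Hoxd13, are known for their part in gland development.

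Hoxd8 and Hoxb4 were the members whose level passed the test in a comparison, and their promoter windows are shown for that reason. The windows span the RefSeq start site and lie mostly before it (build GRCm38.p6, plus strand), at chr2:74704365-74704664 for Hoxd8 and chr11:96318017-96318316 for Hoxb4, with each CpG dinucleotide in capitals.
Hoxd8: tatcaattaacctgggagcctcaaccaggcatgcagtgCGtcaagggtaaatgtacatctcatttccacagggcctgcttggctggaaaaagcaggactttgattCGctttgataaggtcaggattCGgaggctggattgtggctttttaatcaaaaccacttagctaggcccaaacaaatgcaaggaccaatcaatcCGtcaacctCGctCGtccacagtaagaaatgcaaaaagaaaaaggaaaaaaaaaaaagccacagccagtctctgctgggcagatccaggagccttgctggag
Hoxb4: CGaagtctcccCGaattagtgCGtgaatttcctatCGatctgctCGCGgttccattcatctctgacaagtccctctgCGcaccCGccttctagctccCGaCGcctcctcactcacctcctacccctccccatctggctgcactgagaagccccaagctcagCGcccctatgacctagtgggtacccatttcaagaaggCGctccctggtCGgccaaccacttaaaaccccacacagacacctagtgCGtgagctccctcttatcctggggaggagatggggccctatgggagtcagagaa
The Hoxd8 window holds 6 CpG dinucleotides and has a GC content of 46.7%, and the Hoxb4 window holds 14 and has 58.0%. RefSeq windows were found for 19 members (21 windows, since a gene can have more than 1 start). Their CpG count ran from 4 (Hoxa9, Hoxd4 and 1 of the Hoxd11 windows) to 45 (Hoxa13) with a median of 20, against a median of 7 over 32851 windows of all genes, and 17 of the 21 were at or above that median. On either strand, CCAAT, the letters bound by NF-Y, occurs in 12 of the 21 Hox windows (57.1%) and in 37.4% of all windows, and the Hoxd8 window has 1 match, which begins at base -62 from the start. TGATNNAT, a form of the site that Hox proteins share with Pbx partners, is in 2 of the 21 (9.52%, Hoxa2 and Hoxd11) and in 8.85% of all windows, and in neither window printed here. The motifs can overlap by the letters at their ends, and a match is a description of the letters only.

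Which Hox genes were transcribed was asked first. Levels are given as CPM, the usual counts scaled to library size, with the TMM factors applied. A gene was called expressed at a CPM of at least 1 in any library, trace where it had reads but never reached that level, and absent where all 6 libraries had 0 reads. By this rule 18 members were expressed, 11 were trace and 3 were absent. Clusters differed in how many of their measured genes were expressed: 10 of 11 Hoxa genes were expressed, 1 of 4 Hoxb, 5 of 9 Hoxc and 2 of 8 Hoxd. With a level of 0.5 CPM in place of 1, 21 members were expressed.

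In Hoxa, on chromosome 6, only Hoxa2 stayed at trace, with 0.263 to 0.468 CPM. The genes at the 3′ end, which pattern the hindbrain and neck, were low: Hoxa3 had 1.05 to 3.12 CPM and Hoxa4 had 0.301 to 1.42 CPM. From Hoxa5 to Hoxa11 every gene was above 1 CPM in all 6 libraries. Hoxa13, the last gene of the cluster and a regulator of digits and the urogenital tract, was also present in all 6, at 1.94 to 4.31 CPM.

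In Hoxb, on chromosome 11 (96194316 to 96368256), Hoxb4, known for self-renewal of blood stem cells, was the member that reached 1 CPM, and it did so only in the RM1 libraries. Hoxb9 had 0 reads in bone, 2 in lung, 0 in both RM1536 libraries, and 1 and 3 in RM1. Hoxb3 and Hoxb13 had 0 reads in all 6 libraries, which allows up to 3 counts, or 0.099 to 0.132 CPM depending on the library. Hoxb13 is the Hox gene most tied to the prostate, where it is needed for normal secretory cells of the ventral lobe.

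In Hoxc, on chromosome 15 (102921103 to 103036852), the expressed genes were Hoxc4, Hoxc6, Hoxc9, Hoxc10 and Hoxc11. Hoxc5 (0.176 to 0.637 CPM) and Hoxc8 (0.241 to 0.868 CPM) lay between them at trace. The 5′ end of the cluster was close to empty, since Hoxc12 had 1 read in RM1 a and Hoxc13 had 1 read in RM1536 a, with 0 in the other 5 libraries of each gene.

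In Hoxd, on chromosome 2 (74668310 to 74765142), the neighbours Hoxd8 and Hoxd9 were expressed in all 6 libraries and no other member was. On their 3′ side Hoxd4 was at trace (0.434 to 0.7498 CPM), Hoxd3 had 2 to 10 reads and Hoxd1 had 1 read in RM1 b. On their 5′ side Hoxd10 had 1 read in bone and 1 in RM1 a, Hoxd11 had 1 read in RM1 a, and Hoxd13, which shapes digits and the accessory sex glands, had 0 reads in all 6. Reads of Hoxd3 and Hoxd4 are uncertain, because 62.8% and 52.3% of their annotated exon bases are shared with other genes of the cluster.

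**Figure D1:**
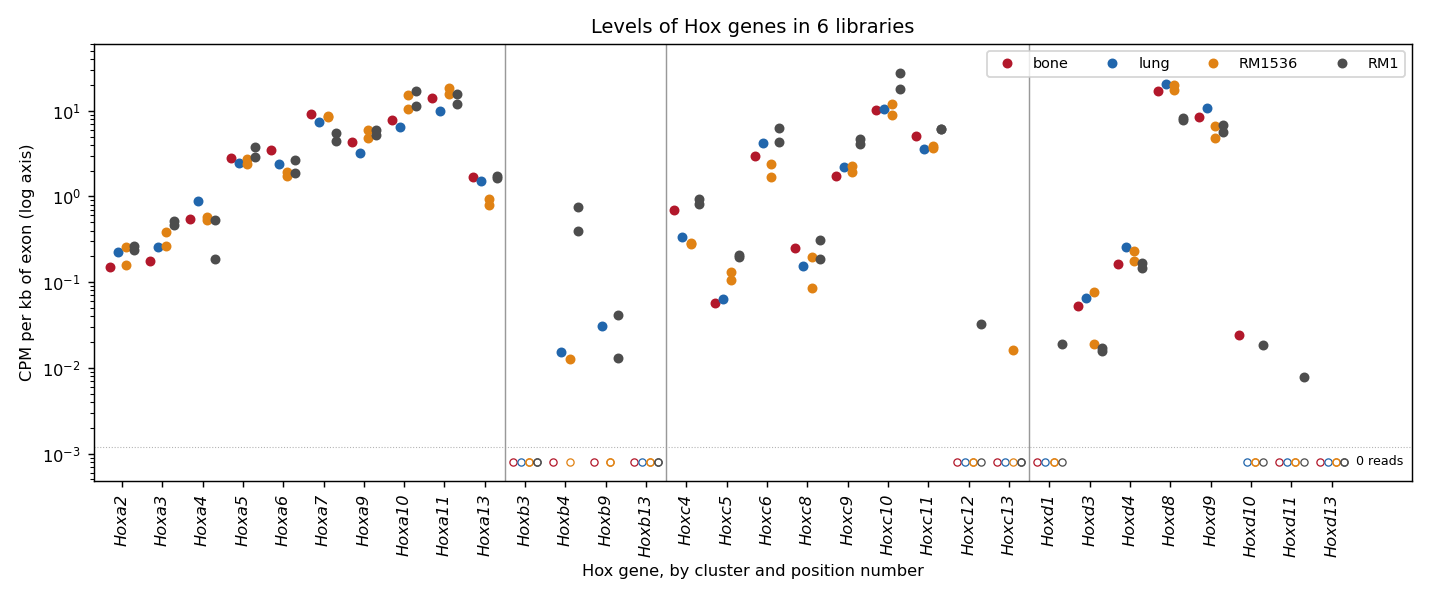
Level of Hox genes (CPM per kb of annotated exon, log axis) by cluster and position number, with 1 point per library coloured by group. Open circles below the dotted line stand for libraries with 0 reads. Hoxd8 and Hoxd9 stand between neighbours at trace or 0, and Hoxb has no point above 1 CPM per kb.

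Per library, the number of members at 1 CPM or above was 15 in bone, 15 in lung, 15 and 14 in RM1536, and 16 and 17 in RM1. All Hox reads together made up 0.0209% to 0.0286% of the counts of a library. Total counts were 22763835 to 30303566, so a count of 3 was at most 0.132 CPM. The duplicates of a line differed beyond counting error (chi-square per degree of freedom 91.1 in RM1536 and 89.9 in RM1 across genes). Among the 11 members with a mean of at least 5 CPM, the largest difference between duplicates was 0.55 on the log2 scale in RM1536 and 0.61 in RM1.

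Levels of different genes were compared per kb of annotated exon. Averaged over the 6 libraries, the order was led by Hoxd8 (15.1 CPM per kb), Hoxc10 (14.5), Hoxa11 (14.3) and Hoxa10 (11.5). Hoxa7 (7.25) and Hoxd9 (7.24) came next, then Hoxa9 (4.92), Hoxc11 (4.74), Hoxc6 (3.63), Hoxa5 (2.82), Hoxc9 (2.82), Hoxa6 (2.35) and Hoxa13 (1.39). The first 4 genes changed places between libraries and are not separated by this order: Hoxa10 was rank 2 in RM1 a, rank 3 in RM1 b and both RM1536 libraries, and rank 6 in bone and lung. Most of the next genes also changed places with their neighbours, and Hoxc6 ran from rank 5 in RM1 b to rank 12 in RM1536 b. Hoxa13 was rank 13 in all 6 libraries.

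The gene at the head of the order was not the same in all groups. Hoxd8 led in bone (16.8 CPM per kb), in lung (20.6) and in RM1536 a (19.9), and Hoxa11 led in RM1536 b (18.4, with Hoxd8 at 17.5). In RM1 Hoxd8 stood at 8.13 and 7.77 CPM per kb, below Hoxc10, Hoxa10 and Hoxa11. Hoxc10 stood at 10.1 CPM per kb in bone, 10.4 in lung, and 8.81 and 11.9 in RM1536, and led in RM1 a (27.7) and RM1 b (18.1).

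Summed per kb, Hoxa took the largest part in every library: 48.9% in bone, 40.0% in lung, 51.2% and 56.2% in RM1536, and 47.4% and 45.1% in RM1. Hoxd took 28.1% in bone, 36.2% in lung, 29.6% and 23.1% in RM1536, and 13.3% and 14.9% in RM1. Hoxc took 23.0% in bone, 23.8% in lung, 19.1% and 20.7% in RM1536, and 39.0% and 39.1% in RM1. The 4 libraries of RM1536 origin (bone, lung and both RM1536 libraries) had a larger share in Hoxd than in Hoxc, and both RM1 libraries had a larger share in Hoxc. Summed CPM over all members was 232.5 in bone, 222.3 in lung, 239.9 and 264.2 in RM1536, and 288.6 and 234.6 in RM1, so the groups of duplicates overlapped in the total.

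**Figure D2:**
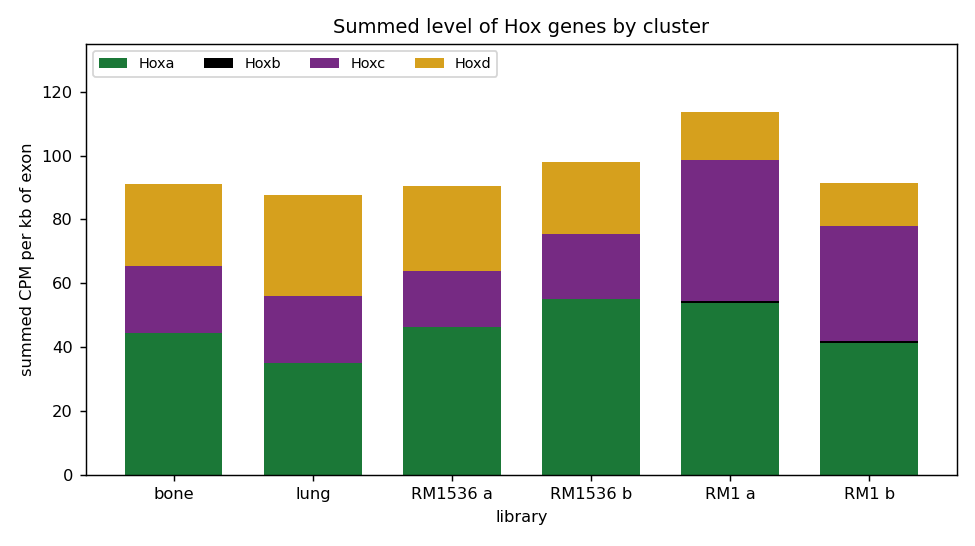
Summed level of the members of each Hox cluster in each library, in CPM per kb of exon, stacked by cluster. The Hoxc layer is between 17.3 and 20.9 in bone, lung and RM1536, against 44.3 and 35.8 in RM1, and the Hoxd layer is between 22.6 and 31.8 in bone, lung and RM1536, against 15.1 and 13.7 in RM1.

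By position, the 15 members numbered 9 to 13 took 54.8% to 64.7% of the Hox signal per kb in bone, lung and RM1536, and 75.6% and 70.3% in RM1. The 11 members numbered 4 to 8 took 34.2% to 44.1% in bone, lung and RM1536, and 23.4% and 28.2% in RM1. The 6 members numbered 1 to 3 took 0.777% to 1.57% in any library. Hoxd8 is the largest of the central class, and no test was made on these shares.

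The labelled line was then compared with the line it was made from (RM1536 against RM1), with edgeR's quasi-likelihood test and Benjamini-Hochberg (BH) adjustment over 13832 genes. Hoxd8 was higher in RM1536 and Hoxb4 was lower, and these were the 2 members called among the 22 that passed the filter on low counts. Hoxb4 passed that filter only through its RM1 reads, so it could only come out lower. Across all genes 5.64% were called in this comparison (2.1% higher and 3.54% lower), so 2 of 22 is close to the background. In Hoxc all 7 tested members had a log2 fold change below 0, and none passed the adjusted threshold with edgeR.

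Hoxd8 (ENSMUSG00000027102, chromosome 2, 74704615 to 74707933, plus strand), a trunk gene of the central class, had 46.1 CPM in bone, 56.4 in lung, 54.5 and 48.1 in RM1536, and 22.3 and 21.3 in RM1. All 4 libraries of RM1536 origin were above both RM1 libraries. Bone and lung came from injected RM1536 cells, so they are not independent of RM1536, and the share of all genes that split this way was not counted. The means were 51.3 ± 4.6 CPM in RM1536 and 21.8 ± 0.7 in RM1 (SD, n = 2 each), a log2 fold change of 1.23 ± 0.20 (SE, edgeR BH-adjusted p = 0.0291), or 2.35-fold. The call needed all 4 culture libraries: the edgeR adjusted p was 0.102 when RM1 a was left out and 0.121 when RM1 b was, 0.0914 when RM1536 a was left out and 0.0837 when RM1536 b was, with a log2 fold change of 1.11 to 1.30. In bulk RNA, fewer cells with a transcript and less of it per cell cannot be told apart.

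Hoxb4 (ENSMUSG00000038692, chromosome 11, 96318267 to 96321638, plus strand) had 0 reads in bone, 1 in lung, 0 and 1 in RM1536, and 30 and 55 in RM1. In RM1 this is 1.00 and 1.95 CPM, a low level, and every other library was at or under the limit that 0 counts allow. RM1536 had 1 read against 85 in RM1, a ratio, scaled to library size, of 0.0123 (exact 95% counting interval 0.000307 to 0.0703, counting error only; edgeR BH-adjusted p = 0.0300). The gene passed the filter only through RM1, and the call was kept without RM1 a (edgeR adjusted p = 0.0315) but not without RM1 b (0.0623), RM1536 a (0.0928) or RM1536 b (0.101).

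Among the Hoxc genes, Hoxc10, which marks lumbar motor neurons and the hindlimb region, had 19.4 CPM in bone, 19.8 in lung, 16.8 and 22.7 in RM1536, and 52.8 and 34.7 in RM1. Hoxc9, which sets thoracic identity in the spinal cord, had 4.17 CPM in bone, 5.33 in lung, 4.71 and 5.47 in RM1536, and 11.5 and 9.95 in RM1. Hoxc6, a thoracic and mammary gene whose human counterpart is used as a prostate cancer marker, had 7.07 CPM in bone, 10.1 in lung, 5.75 and 4.04 in RM1536, and 10.5 and 14.9 in RM1. For each of these 3 genes the RM1536 libraries lay below both RM1 libraries, as they did for 26.9% of all genes. Bone and lung also lay below RM1, though for Hoxc6 lung (10.1) was close to RM1 a (10.5). Bone and lung came from injected RM1536 cells, and the share of all genes with all 4 libraries below RM1 was not counted.

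The RM1536 against RM1 differences for these genes did not pass the test. Hoxc10 had a log2 fold change of -1.15 ± 0.30 (SE, edgeR BH-adjusted p = 0.0870). Hoxc9 had -1.07 ± 0.29 (edgeR BH-adjusted p = 0.0959). Hoxc6 had -1.38 ± 0.34 (edgeR BH-adjusted p = 0.0753). DESeq2, run as an alternative, did call them, with adjusted p-values of 0.0126 for Hoxc10, 0.0488 for Hoxc9 and 0.0114 for Hoxc6, while limma-voom did not. The alternatives also include a crossed pairing of the replicates, chosen after seeing the data. Over all alternatives the adjusted p ran from 0.00103 to 0.250 for Hoxc10, from 0.0143 to 0.282 for Hoxc9 and from 0.00213 to 0.282 for Hoxc6.

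Hoxc11, a gene of the hindlimb and lumbar region, had 10.4 CPM in bone, 7.18 in lung, 7.40 and 7.83 in RM1536, and 12.2 and 12.4 in RM1. Its groups of duplicates were narrow and apart, but the log2 fold change of RM1536 against RM1, -0.69 ± 0.25, was not called (SE, edgeR BH-adjusted p = 0.177). Hoxc4, at the 3′ end of the cluster, had 1.80 CPM in bone, 0.868 in lung, 0.724 and 0.744 in RM1536, and 2.40 and 2.12 in RM1, and its log2 fold change of -1.62 ± 0.42 was not called either (edgeR BH-adjusted p = 0.0875). Bone was the library nearest to RM1 for both genes.

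Across the cluster, 7 of 7 tested Hoxc members had a log2 fold change below 0 in RM1536 against RM1, where 48.6% of all tested genes did. edgeR called 0 of the 7. At an unadjusted p under 0.05, 5 of 7 were lower (12.5% of all genes), DESeq2 called 3 (10.9% of all genes), and in 6 of 7 the RM1536 libraries lay below both RM1 libraries (26.9% of all genes). The median log2 fold change was -1.07 in Hoxc, against 0.02 over all tested genes, and it ran from -0.84 to -1.21 over the alternatives. Reads of Hoxc10 and Hoxc5 can be confused, since they share 8.70% and 5.37% of their exon bases.

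The Hoxa genes, the cluster with the largest share of the Hox signal in every library, gave 0 calls in RM1536 against RM1, with 2 of 11 at an unadjusted edgeR p under 0.05 (Hoxa7 on the higher side and Hoxa13 on the lower, where 23% of all genes had one), and neither DESeq2 nor limma-voom called a Hoxa member. Hoxa7, a trunk gene, had 26.2 CPM in bone, 21.2 in lung, 24.7 and 24.4 in RM1536, and 15.9 and 12.7 in RM1. All 4 libraries of RM1536 origin were above RM1, a split whose share over all genes was not counted. The log2 fold change of RM1536 against RM1, 0.78 ± 0.23, was not called (SE, edgeR BH-adjusted p = 0.115). Part of its reads could belong to the antisense gene Hoxaas3, which shares 20.4% of the Hoxa7 exon bases and was at 0.276 to 0.571 CPM.

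Hoxa13 had 4.21 CPM in bone, 3.71 in lung, 2.33 and 1.94 in RM1536, and 4.31 and 4.04 in RM1. The RM1536 duplicates were the lowest libraries, and the log2 fold change against RM1, -0.97 ± 0.34, was not called (SE, edgeR BH-adjusted p = 0.170). Hoxa5, which patterns the neck and the developing lung, had 5.22 CPM in bone, 4.62 in lung, 4.46 and 5.11 in RM1536, and 7.01 and 5.34 in RM1, with a log2 fold change of -0.37 ± 0.32 (edgeR BH-adjusted p = 0.556). The RM1536 libraries lay below both RM1 libraries, with a gap between the means that was smaller than the gap between the RM1 duplicates.

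Hoxa9, Hoxa10 and Hoxa11 overlapped between RM1536 and RM1. Hoxa9, known for its role in blood progenitors and leukaemia, had 24.3 CPM in bone, 18.0 in lung, 26.6 and 33.4 in RM1536, and 33.2 and 29.1 in RM1 (log2 fold change of RM1536 against RM1 -0.05 ± 0.23 SE, edgeR BH-adjusted p = 0.922). Hoxa10, which sets identity in the reproductive tract, had 25.8 CPM in bone, 20.9 in lung, 34.4 and 50.4 in RM1536, and 55.9 and 37.3 in RM1 (-0.13 ± 0.30 SE, edgeR BH-adjusted p = 0.835). Hoxa11, a gene of the reproductive tract, kidney and limb, had 32.0 CPM in bone, 22.8 in lung, 36.2 and 42.0 in RM1536, and 36.3 and 27.4 in RM1 (0.30 ± 0.24 SE, edgeR BH-adjusted p = 0.514). In all 3 genes lung was the lowest library and bone the second lowest, except that RM1 b was below bone for Hoxa11.

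Hoxa11 shares 35.0% of its exon bases with the antisense transcript Hoxa11os. The strand setting of the counting is not given in the sources used here, so reads in the shared bases cannot be assigned to either gene. Hoxa11os stood at 7.90 CPM in bone, 4.22 in lung, 6.60 and 7.51 in RM1536, and 6.54 and 4.71 in RM1. Lung was the lowest library for it as well.

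Hoxd9, a gene of the trunk and forelimb and the neighbour of Hoxd8, had 18.3 CPM in bone, 23.2 in lung, 14.3 and 10.4 in RM1536, and 14.4 and 12.2 in RM1. RM1536 and RM1 overlapped, at a log2 fold change of -0.11 ± 0.27 (SE, edgeR BH-adjusted p = 0.854), while Hoxd8 differed between the same libraries. Bone and lung were the highest libraries for Hoxd9.

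**Figure D3:**
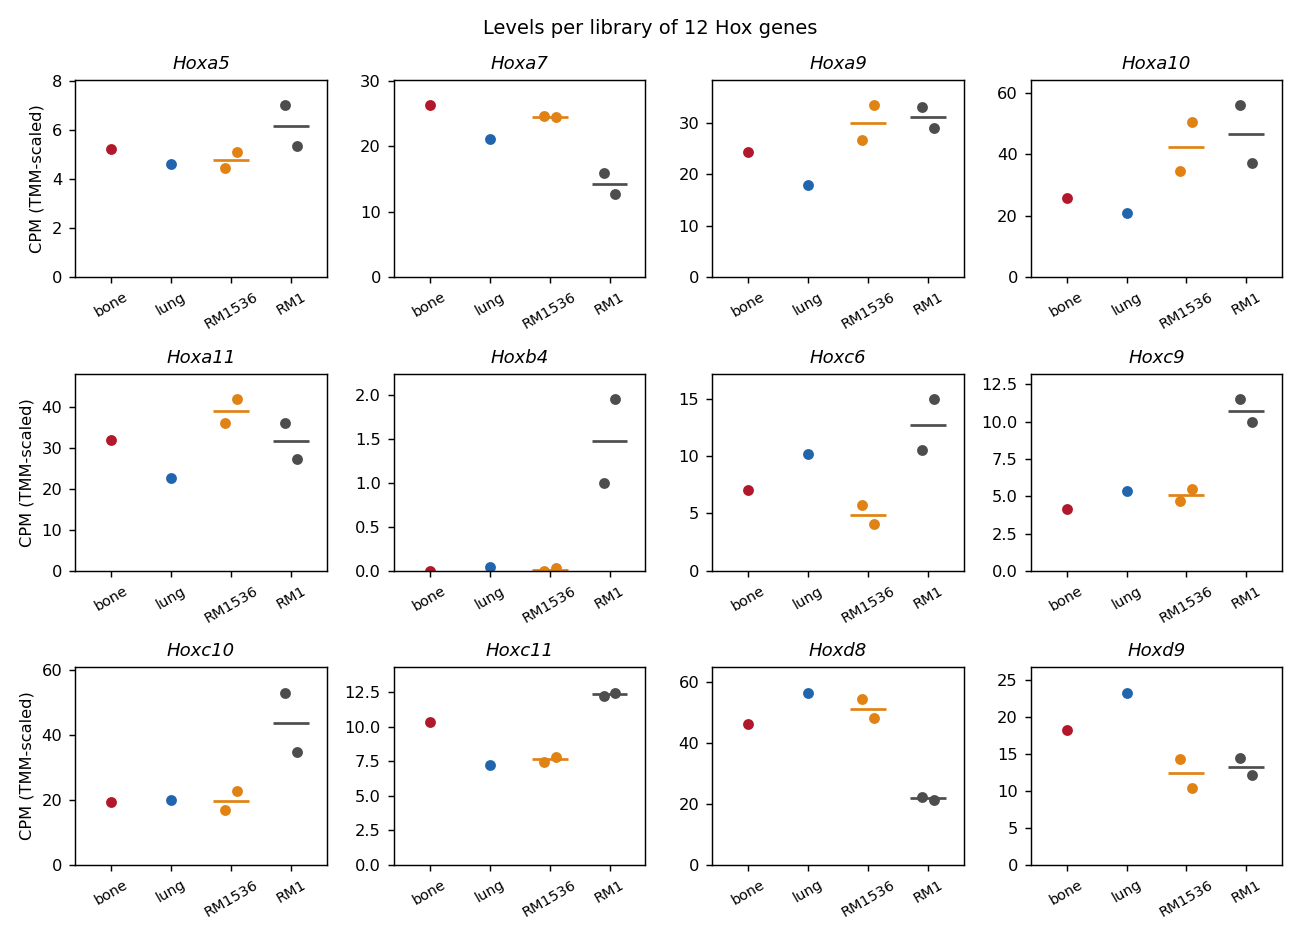
Level in CPM of 12 Hox genes in each library, 1 panel per gene with axes from 0, with points for libraries and lines for the means of the RM1536 and RM1 duplicates. In the Hoxd8 panel bone, lung and RM1536 lie between 46.1 and 56.4 CPM and RM1 at 22.3 and 21.3, and in the Hoxc9 and Hoxc10 panels RM1 is the high group.

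Recovered cells were next set against the injected line, each with 1 library and the spread taken from the culture duplicates. No Hox gene was called in bone against RM1536 or in lung against RM1536. Few genes of any kind were: 2 of 13832 (0.0145%) in bone and 0 (0%) in lung, so these comparisons could call little. The values below describe single libraries from 1 mouse.

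In bone, the Hox gene with the lowest p was Hoxc4, at a log2 fold change of 1.29 ± 0.50 against RM1536 (SE, edgeR BH-adjusted p = 0.472), from 41 reads in bone against 18 and 23 in RM1536. It was the 1 member with an unadjusted edgeR p under 0.05, where 9.92% of all genes had one, and DESeq2 and limma-voom gave 0 members at that level and called 0. Hoxa13 (0.98 ± 0.41, edgeR BH-adjusted p = 0.512) and Hoxa6 (0.94 ± 0.48, edgeR BH-adjusted p = 0.622) had the next largest positive values. Bone lay outside the RM1536 duplicates in 19 of 22 tested members (9 above, 10 below), where 68.7% of all genes did.

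In lung, 5 members had an unadjusted edgeR p under 0.05, against 13.8% of all genes, and the adjusted values were 0.331 to 0.357. Hoxd9 (0.91 ± 0.32, SE, edgeR BH-adjusted p = 0.331) and Hoxc6 (1.05 ± 0.39, edgeR BH-adjusted p = 0.345) were on the higher side. On the lower side were 3 adjacent genes of the Hoxa cluster, Hoxa9 (-0.74 ± 0.29, edgeR BH-adjusted p = 0.357), Hoxa10 (-1.02 ± 0.39, edgeR BH-adjusted p = 0.349) and Hoxa11 (-0.78 ± 0.30, edgeR BH-adjusted p = 0.355). DESeq2 gave 4 members and limma-voom 5 at an unadjusted p under 0.05, and neither called one.

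For Hoxd8, the member called above, the log2 fold change against RM1536 was smaller than its SE in both recovered libraries, at -0.15 ± 0.25 in bone (SE, edgeR BH-adjusted p = 0.907) and 0.14 ± 0.24 in lung (edgeR BH-adjusted p = 0.816). The same held for Hoxc10, at -0.03 ± 0.36 in bone (edgeR BH-adjusted p = 0.995) and 0.00 ± 0.36 in lung (edgeR BH-adjusted p = 1.00). Hoxb4 had at most 1 read in each of these libraries and gets no fold.

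**Figure D4:**
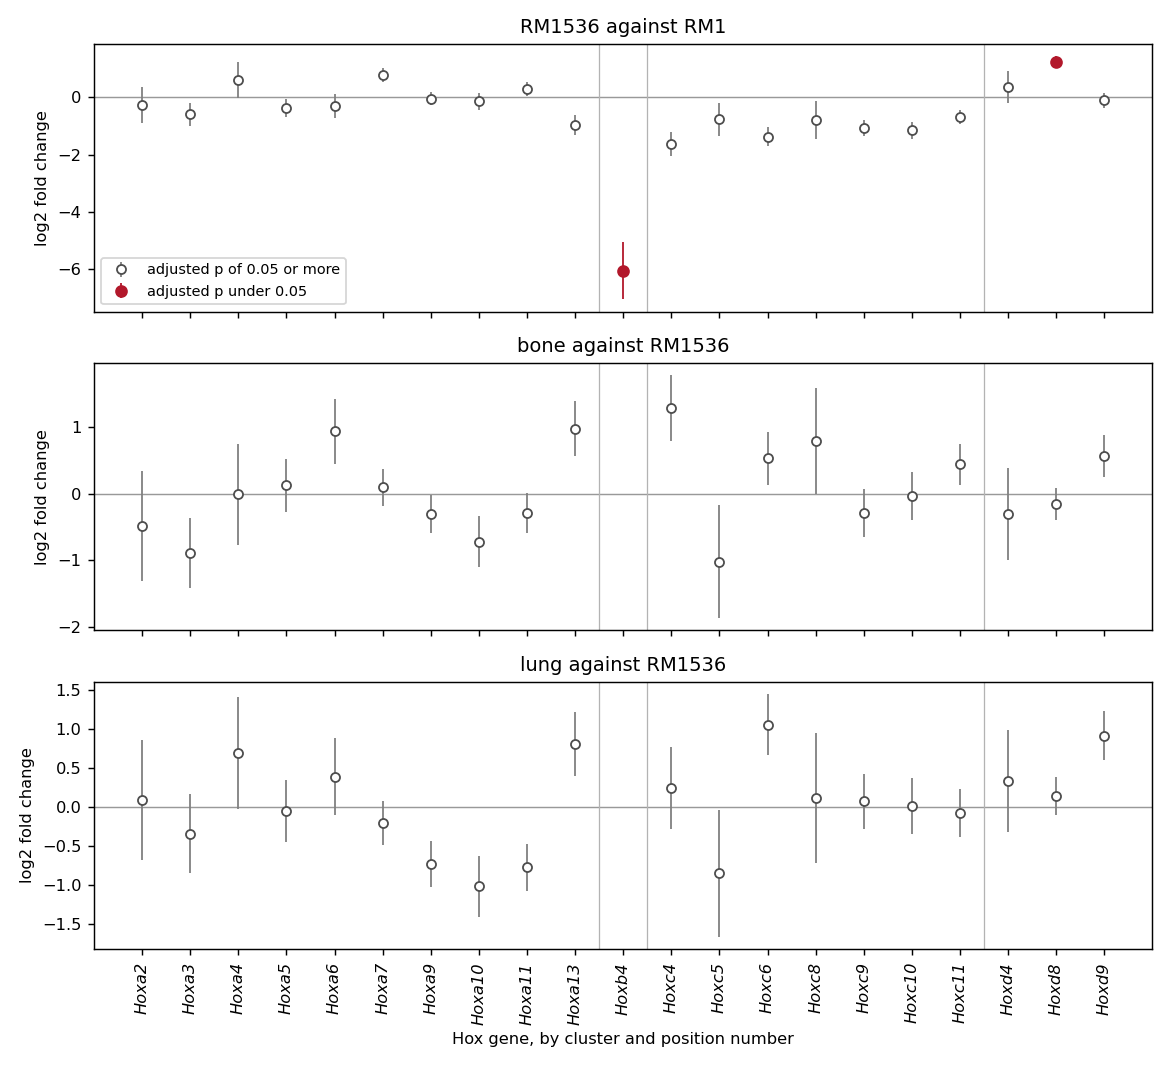
Log2 fold change of tested Hox genes in RM1536 against RM1, bone against RM1536 and lung against RM1536, with bars of 1 SE from the edgeR fit and filled points for an adjusted p under 0.05. In the top panel the 7 Hoxc points are all below 0, Hoxd8 is at 1.23 and the fitted Hoxb4 value depends on the prior count, since RM1536 had 1 read. Hoxb4 is left out of the lower panels, where both groups were at or under 3 counts.

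Bone and lung cells of the same mouse were compared directly. Of the 22 tested members, 0 were called and 0 had an unadjusted p under 0.05 by edgeR, DESeq2 or limma-voom, where edgeR called 0.00723% of all genes and gave 8.47% an unadjusted p under 0.05. The lowest edgeR adjusted p was 0.652, for Hoxc4, with 1.80 CPM in bone and 0.868 in lung. Hoxa7, Hoxa9, Hoxa10 and Hoxa11 had larger values in the bone library, by 0.30 to 0.49 on the log2 scale, and Hoxd8 and Hoxd9 had smaller ones, at -0.29 ± 0.28 and -0.35 ± 0.38 (SE). Some of these differences are larger and some smaller than those between the duplicates of the same gene, which were 0.182 in RM1536 and 0.066 in RM1 for Hoxd8. For Hoxa10, at 0.30 ± 0.43 (SE) in bone against lung, the duplicates differed by 0.549 in RM1536 and 0.584 in RM1.

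The recovered cells were also set against RM1, the line from which RM1536 came. These comparisons share the RM1 libraries with the first one, so each is given by its own values. Hoxd8 was called in lung against RM1, at 1.37 ± 0.24 (SE, edgeR BH-adjusted p = 0.0413), and it was the 1 member called, where 3.49% of all genes were called (1.91% higher). The lung call was lost without RM1 a (edgeR adjusted p = 0.125), RM1 b (0.0987) or RM1536 a (0.0517), and held at 0.0497 without RM1536 b. In bone against RM1 the Hoxd8 value was 1.08 ± 0.24 (SE, edgeR BH-adjusted p = 0.0636), not called by edgeR and called by DESeq2 (adjusted p = 0.0154, with 0.0154 to 0.219 over all alternatives).

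In bone against RM1, edgeR called 0 Hox members, where 4.59% of all genes were called, and 6 members had an unadjusted p under 0.05 (20.7% of all genes). DESeq2 called 3 of 22 (Hoxb4, Hoxc9 and Hoxd8), where it called 10.7% of all genes, and limma-voom called 0. Hoxb4 is in both counts, and with reads almost only in RM1 it could only come out lower. Hoxb4, with 0 reads in bone against 85 in the RM1 libraries, was at least 11.1-fold lower with 3 counts taken as the bone limit (the exact 95% counting interval of the ratio runs from 0 to 0.113, a weaker bound; edgeR BH-adjusted p = 0.0629). Hoxc9 (-1.36 ± 0.38, SE, edgeR BH-adjusted p = 0.114) and Hoxc10 (-1.18 ± 0.38, edgeR BH-adjusted p = 0.153) were low, and Hoxa7 (0.88 ± 0.27, edgeR BH-adjusted p = 0.142) was high.

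In lung against RM1, 8 members had an unadjusted p under 0.05 (22.1% of all genes). Hoxb4 is among them, and here too it could only come out lower. Hoxb4 had 1 read in lung, a ratio to RM1 of 0.027 (exact 95% counting interval 0.000676 to 0.155, edgeR BH-adjusted p = 0.0887). Hoxc10 (-1.14 ± 0.38, SE, edgeR BH-adjusted p = 0.158), Hoxc9 (-1.01 ± 0.37, edgeR BH-adjusted p = 0.189) and Hoxa10 (-1.16 ± 0.39, edgeR BH-adjusted p = 0.162) were on the lower side. Hoxd9 was on the higher side with Hoxd8, at 0.80 ± 0.32 (edgeR BH-adjusted p = 0.214).

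Proteins that work with Hox factors or act on the clusters were described by lists. The list of TALE cofactors held the Pbx, Meis and Pknox genes, whose homeodomain proteins bind DNA together with Hox factors. It also held Pbxip1, Tgif1 and Tgif2, and all 12 genes were tested. In RM1536 against RM1, edgeR called 0 (5.64% of all genes) and gave 2 an unadjusted p under 0.05 (23% of all genes), and DESeq2 and limma-voom called 0. Among the recovered cells, Meis1 had 8.91 CPM in bone, 32.95 in lung, 39.3 and 51.2 in RM1536, and 65.5 and 55.1 in RM1. Bone was far below all other libraries, and the log2 fold change of bone against RM1 was -2.76 ± 0.33 (SE, edgeR BH-adjusted p = 0.0177), while bone against RM1536 (-2.35 ± 0.33) was not called by edgeR (BH-adjusted p = 0.0843) and was called by DESeq2. Pknox2 had 0 reads in bone, 3 in lung, 165 and 317 in RM1536, and 211 and 80 in RM1. Against RM1536, edgeR called it neither in bone (BH-adjusted p = 0.0843) nor in lung (BH-adjusted p = 0.268), while DESeq2 called it lower in both. DESeq2 also called Pbxip1 higher in bone than in RM1536, and Meis1 and Meis3 lower in bone than in lung or RM1. Against RM1, Pknox2 was called lower in bone (edgeR BH-adjusted p = 0.0289) and in lung (edgeR BH-adjusted p = 0.0468). Across all genes, edgeR called 4.59% and 3.49% in these 2 comparisons. The bone call was lost with limma-voom (adjusted p = 0.0705, with 1.09e-13 to 0.0705 over all alternatives), and the lung call without RM1 a (edgeR adjusted p = 0.0533), RM1536 a (0.0569) or RM1536 b (0.0558), with the stricter filter (0.0531) and with limma-voom (0.103).

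Of 31 tested Polycomb genes, whose products silence Hox clusters, edgeR and limma-voom called 1 in RM1536 against RM1, where edgeR called 5.64% of all genes, and DESeq2 called 2, where it called 10.9% of all genes, with Phf19 on the higher side. The gene called by all 3 tools was Jarid2, a subunit that brings Polycomb complex PRC2 to its targets, with 17.6 CPM in bone, 9.59 in lung, 16.8 and 16.02 in RM1536, and 45.6 and 43.9 in RM1. All 4 libraries of RM1536 origin were below RM1, a split whose share over all genes was not counted. The log2 fold changes were -1.45 ± 0.21 in RM1536 (SE, edgeR BH-adjusted p = 0.0212), -1.35 ± 0.27 in bone (edgeR BH-adjusted p = 0.0501) and -2.22 ± 0.28 in lung (edgeR BH-adjusted p = 0.0219), each against RM1. The first of these calls was lost without any 1 of the 4 culture libraries (edgeR adjusted p = 0.0658 with RM1 a left out, 0.0548 with RM1 b, 0.0661 with RM1536 a and 0.0910 with RM1536 b), and the lung call without RM1 a (0.0519). The median over the 31 genes was -0.03 in RM1536 against RM1, beside 0.02 over all genes. Of the 20 trithorax and H3K27 demethylase genes, edgeR and limma-voom called 0 in all 6 comparisons. edgeR gave 2 of them an unadjusted p under 0.05 in RM1536 against RM1, in bone against RM1536 and in bone against RM1 (23%, 9.92% and 20.7% of all genes), and 0 in the other 3, and DESeq2 called 1 (Kdm6b, an H3K27 demethylase, lower in RM1536 than in RM1).

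Among genes of the Cdx and retinoic acid inputs, 17 were tested and 2 were called by edgeR in RM1536 against RM1, both higher, where 2.1% of all genes were called higher. Crabp1, a cytoplasmic retinoic acid binding protein, had 1209 CPM in bone, 1193 in lung, 1114 and 1221 in RM1536, and 7.61 and 14.6 in RM1 (log2 fold change of RM1536 against RM1 6.71 ± 0.42 SE, edgeR BH-adjusted p = 0.00576). Crabp2, which carries retinoic acid to its nuclear receptors, had 42.1 CPM in bone, 38.3 in lung, 24.7 and 22.6 in RM1536, and 0.301 and 0.425 in RM1 (6.01 ± 0.31 SE, edgeR BH-adjusted p = 0.00443). Bone and lung were close to RM1536 for Crabp1 and above it for Crabp2. Against RM1, the retinoic acid receptor gene Rarg was also called higher in lung (1.42 ± 0.26 SE, edgeR BH-adjusted p = 0.0459). The Rarg call was lost without RM1 a (edgeR adjusted p = 0.153), RM1536 a (0.0607) or RM1536 b (0.0583). Cdx1, Cdx2 and Cdx4 were at or under 0.0878 CPM in every library.

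Noncoding transcripts within the clusters and the genes that flank them gave 18 tested entries and 0 calls by edgeR or limma-voom in all 6 comparisons. An unadjusted edgeR p under 0.05 was found for 2 in RM1536 against RM1 (23% of all genes), 2 in lung against RM1536 (13.8%), 1 in bone against RM1 (20.7%) and 4 in lung against RM1 (22.1%), so each share was near or below that of all genes. DESeq2 called Hibadh, which lies beyond the Hoxa13 end of its cluster, lower in bone and in lung than in RM1, where it called 10.7% and 10.5% of all genes. Hoxd3os1, antisense to Hoxd3 and Hoxd4, had 2.06 CPM in bone, 2.60 in lung, 2.33 and 1.91 in RM1536, and 1.03 and 0.991 in RM1. Its libraries split the same way as those of Hoxd8, but the log2 fold change of RM1536 against RM1, 1.06 ± 0.40, was not called (SE, edgeR BH-adjusted p = 0.189). Mtx2, the gene beside the 3′ end of the Hoxd cluster, had 55.0 CPM in bone, 66.1 in lung, 67.7 and 59.6 in RM1536, and 46.5 and 51.9 in RM1. Its log2 fold change of RM1536 against RM1, 0.37 ± 0.20, was not called (SE, edgeR BH-adjusted p = 0.335). Lnp, a gene of the same list, did not split in this way, with 26.1 CPM in bone, 25.7 in lung, 33.7 and 30.2 in RM1536, and 24.3 and 26.5 in RM1. Hotair, transcribed from within Hoxc, was at or under 0.0971 CPM, and Hottip, beyond Hoxa13, at or under 0.0395 CPM. Of 10 homeobox genes related to Hox outside the clusters, 2 were tested and neither was called.

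As a check on the label, 6 of 17 genes of the prostate lineage passed the filter. The luminal keratin genes Krt8 and Krt18 were at 966 to 2366 and 275 to 458 CPM, while Foxa1, Krt5 and Hoxb13 had 0 reads in all 6 libraries. Gata3, a luminal factor, was the 1 of these 6 called in RM1536 against RM1 (5.64% of all genes), with 6.10 CPM in bone, 5.49 in lung, 3.499 and 2.168 in RM1536, and 11.8 and 20.2 in RM1 (-2.50 ± 0.42 SE, edgeR BH-adjusted p = 0.0299). That call was lost without RM1 b (edgeR adjusted p = 0.0612), RM1536 a (0.0618) or RM1536 b (0.120).

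Markers of other cell types were read beside these results. Leukocyte markers (6 of 7 in the table) summed to 5.40 CPM in bone, 3.35 in lung, 0.282 and 0.194 in RM1536, and 1.67 and 1.95 in RM1, with the pan-leukocyte gene Ptprc at 0 in bone and lung and the myeloid gene Lyz2 at 2.68 and 2.88 CPM there and 0 elsewhere. Stromal fibroblast markers (5 of 5) summed to 32.2 CPM in bone, 657 in lung, 80.9 and 56.2 in RM1536, and 23.7 and 32.8 in RM1, and Col1a1 alone made 604 CPM of the lung sum. The other 4 markers did not stand out together in lung: Pdgfra was highest there (28.3 CPM, against 12.7 and 6.12 in RM1536), Dcn (24.3) lay between the RM1536 libraries (57.8 and 21.1), and Col1a2 (0.276, against 0.644 and 1.04) and Lum (0.118, against 0.885 and 0.259) lay below both. Fibroblasts of many organs express Hox genes, and the part of this signal in the lung values of Hoxd9, Hoxc6, Hoxa9, Hoxa10 and Hoxa11 was not tested. Endothelial and lung epithelial markers stayed at or under 1.89 CPM in sum, and erythroid markers at or under 0.659 CPM. Osteoblast markers summed to 48.0 to 79.4 CPM, nearly all of it Runx2, with Sp7 at or under 0.0647 CPM and at 0 in bone.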

How the data were processed

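The authors deposited raw read counts by gene for the 6 libraries, made from total RNA (innuPREP extraction, NEBNext Ultra libraries, HiSeq2500 reads, per the labels' protocols). The submitters' processing notes name genome build GRCm38, TopHat2 2.1.10, HTSeq and edgeR, without their roles. No source used here gives the strand setting, the counting mode or the annotation release. Of 23792 entries, 1 blank entry (0.00626% to 0.00830% of counts) was left out. Each column was matched to a sample by its name, and 0 other columns of sample values were present. Total counts ran from 22763835 to 30303566, and the intervals and limits given reflect counting error alone.

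The main test used edgeR 4.0.16 under R 4.3.3 (TMM factors 0.942 to 1.02, filterByExpr, quasi-likelihood test, all 6 libraries in 1 model of 4 groups). Of the entries, 13832 were tested, with BH adjustment over all of them and a call at 0.05. There were 2 residual degrees of freedom (common dispersion 0.0725), and the spread of bone and lung was taken to equal that of the culture duplicates. The SE is the log2 fold change over the square root of F. Alternatives used DESeq2 1.42.0, limma-voom (limma 3.58.1), other filters and factors, and each culture library left out. For RM1536 against RM1 they also used the 4 libraries compared alone, a replicate block, and a crossed block chosen after seeing the data. On counts simulated for RM1536 against RM1 over 13832 genes, 9 of 49 genes raised 2-fold (18.4%) and 42 of 50 raised 4-fold (84.0%) were called. No gene was lowered there and most were left unchanged, unlike in the data, so these rates need not carry over.

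Full values are given for members called in any comparison or with a mean CPM of at least 5 over the 6 libraries, and of the listed partner genes for those called. Hoxa13, Hoxc4, Hoxd3os1, Mtx2 and other genes outside this rule were named after their values were seen. A few genes are not reported here. Members and lists were chosen with earlier results of these data known. Exon lengths and overlaps come from GENCODE M21, and promoter sequences from RefSeq (GRCm38.p6).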

Additional observations from a re-analysis of the deposited data

How the results depend on the processing

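Hoxd8 was called in RM1536 against RM1 with RLE factors, with no low-count filter, with a stricter filter, with limma-voom, with DESeq2 and with only the 4 libraries compared. It was not called with the letters a and b as a replicate block, or with any 1 of the 4 culture libraries left out. The Hoxc members tested had log2 fold changes below 0 in this comparison in every alternative. The number of Hox members called in RM1536 against RM1 was 2, and it was 5 with DESeq2, 6 with no low-count filter, 1 with the stricter filter (Hoxb4 not tested there) and 0 to 1 without 1 culture library. In bone against RM1 it was 0, with 3 under DESeq2 and 4 with no filter. In lung against RM1 it was 1, with 4 under no filter and 0 to 1 without 1 culture library. In the other 3 comparisons it was 0 under all alternatives.

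Counts over all genes moved more. RM1536 against RM1 had 780 calls, with 1477 under DESeq2, 2394 with no filter and 196 to 513 without 1 culture library. Bone against RM1536 had 2, with 376, 859 and 0 to 128, and 0 with limma-voom. Lung against RM1536 had 0, with 356, 1299 and 0 to 7. Bone against lung had 1, with 217, 754 and 1 to 32, and 0 with limma-voom or the stricter filter. Bone against RM1 had 635, with 1399, 2153 and 444 to 706. Lung against RM1 had 483, with 1375, 2270 and 261 to 632. The cause was not tested.

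Among the members whose RM1536 against RM1 fold is given, the sign turned when 1 culture library was left out for Hoxa9 (-0.05, range -0.247 to 0.072), Hoxa10 (-0.13, range -0.457 to 0.154) and Hoxd9 (-0.11, range -0.384 to 0.087). Over all 11 Hoxa members 8 were below 0, and 6 to 8 were without 1 culture library.

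Whether the letters a and b pair the libraries is not stated. The a minus b differences of RM1536 and RM1 correlated at r = -0.438 across 13832 genes, which are not independent replicates. This value cannot show how the libraries were paired. With the letter as a replicate block, RM1536 against RM1 had 295 calls and 1 Hox member (Hoxb4, adjusted p = 0.0429). With the crossed pairing, chosen after seeing the data, it had 3163 calls and 7 Hox members.

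Depth limits the members at trace: 7 of the 11 had too few reads to be tested, and 0 reads allow up to 0.132 CPM.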

Other observations

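Halr1, a noncoding RNA gene next to the 3′ end of Hoxa, had 1.36 CPM in bone, 3.28 in lung, 1.01 and 0.0971 in RM1536, and 0.367 and 0.495 in RM1. Its RM1536 duplicates were further apart than the RM1 duplicates, and it was not called in any of the 6 comparisons. Hoxa3 had 1.05 CPM in bone, 1.54 in lung, 1.61 and 2.30 in RM1536, and 2.81 and 3.12 in RM1, so bone and lung lay below both RM1 libraries (bone against RM1 -1.49 ± 0.54 SE, edgeR BH-adjusted p = 0.193). The share of all genes that split this way was not counted.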
